A study of Mus musculus with 24 samples.

Results

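Extracellular matrix is cut, and its cutting restrained, by a small set of secreted and membrane-bound proteins: the matrix metalloproteinases (Mmp genes), the ADAMTS proteases (Adamts genes), the ADAMTS-like glycoproteins (Adamtsl genes), which have the ancillary domains of the ADAMTS proteases but no catalytic domain, and the tissue inhibitors of metalloproteinases (Timp genes). The genes of the deposited count tables whose symbol is 1 of these 4 names followed by a number were taken by symbol, except for 1 Mmp gene that is not reported here. This gave 50 of the 24062 genes: 22 Mmp, 4 Timp, 19 Adamts and 5 Adamtsl genes. They were described in all 9 groups of a study of quadriceps, a thigh muscle, from mice on the C57BL/6 background.

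Metalloproteinases are made as inactive precursors and need zinc to cut. The Timp proteins occupy the active site, so the balance of protease and inhibitor sets how fast collagens, fibronectin and proteoglycans are remodelled around muscle fibres. In dystrophic muscle, fibres break and regenerate repeatedly, immune cells enter, and collagen accumulates between the fibres. Gelatinases and membrane-type enzymes act close to the cell surface, collagenases open fibrillar collagen, stromelysins have a broad range of substrates, and several ADAMTS proteases cut the large proteoglycans versican and aggrecan or trim the ends of procollagens.

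Mice were WT, delEx44 or corrected. A delEx44 mouse carries a Dmd gene, which encodes dystrophin, without exon 44 and serves as a Duchenne muscular dystrophy model. A corrected mouse is a delEx44 mouse that was injected intraperitoneally on postnatal day 4 with 1 AAV9 vector for a guide RNA and 1 AAV9 vector for SpCas9, so it carries the same deletion in the germ line. The promoter that drove Cas9 is not given in the sources used here. Each genotype had 3 sedentary libraries at 4 weeks, 2 libraries at 8 weeks after 1 month of running downhill every other day at 12 m/min on a 15 degree slope, and 3 sedentary libraries at 18 months. Corrected mice at 4 weeks and after running had received 8e13 vector genomes per kg of each vector, with a self-complementary guide vector. Those kept to 18 months had received 2.5e14 of a single-stranded guide vector and 5e13 of the Cas9 vector, so in corrected mice age, dose and vector type cannot be told apart. Running cannot be told apart from ageing by 1 month, from 4 to 8 weeks, since no genotype has a sedentary group at 8 weeks.

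A library held between 23.1 and 38.1 mega-reads assigned to genes, and the 50 genes together took 0.105% to 0.227% of them. Levels are given as CPM, the counts of a gene per mega-read of its library, after scaling the libraries of a table to each other with TMM factors, and the 18-month table was scaled separately from that of the other stages. Reads counted over the whole Dmd gene, which do not measure the missing exon itself, came to 204 to 240 CPM in WT, 36.1 to 41.8 in delEx44 and 155 to 172 in corrected muscle at 4 weeks, and the 3 genotypes did not overlap in Dmd at any stage. All 5 skeletal fibre markers were detected in every library, but their summed level was lower in delEx44 muscle: 80539 to 103161 CPM against 169049 to 186203 in WT at 4 weeks, and 45276 to 56065 against 105963 to 114158 at 18 months. Summed macrophage markers, of which none was at 0, were higher in delEx44 than in WT muscle: 1574 to 2222 against 362 to 409 CPM at 4 weeks, 1043 to 1073 against 288 to 293 after running, and 976 to 1044 against 270 to 370 at 18 months. One library stood apart. The 4-week WT replicate 3 had 246 CPM of summed neutrophil markers, against 0.409 and 0.939 in WT replicates 1 and 2, where 6 and 2 of the 10 markers were at 0. It also had 211 CPM of bone and osteoclast markers, against 42.7 and 39.9.

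Of the 50 genes, 42 passed a filter on low counts at 4 weeks and after running and 40 at 18 months. The genes that did not pass were barely read. Mmp1a and Mmp1b, the mouse counterparts of interstitial collagenase, had 0 counts in all 24 libraries. They are close copies of each other, and whether reads that match both were counted is not given in the sources used here. Over the 15 libraries of the first table, Mmp20, an enamel protease, had 1 count, Mmp7 had 3, Mmp21 had 5, Adamts13, the liver protease that cuts von Willebrand factor, had 7 and Mmp10 had 13. Mmp24 had 33 counts there and 53 at 18 months. Adamts18 and Adamts19 passed at the earlier stages but not at 18 months, where they had 29 and 15 counts.

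Levels were compared per kilobase of exon, so that genes can be set beside each other. The summed RNA of the 22 Mmp genes taken, which leaves out the 1 Mmp gene not reported here, was mostly Mmp2. Mmp2 took 62.9% of the summed Mmp level in WT muscle at 4 weeks and 55% to 65.3% over the 9 groups. The summed Mmp level per kilobase was 84.3 ± 10.9 CPM (SD, n = 3) in WT, 136 ± 6.37 in delEx44 and 93.0 ± 9.50 in corrected muscle at 4 weeks. At 18 months it was 38.7 ± 3.42, 106 ± 5.42 and 48.2 ± 15.9. The libraries of delEx44 lay above all WT and corrected libraries at both ages. In delEx44 muscle at 18 months Mmp3 and Mmp19 each took 12.3%. Among the inhibitors Timp2 had the highest level per kilobase, with 57.3% in delEx44 and 60.4% in WT muscle at 4 weeks. At 18 months Timp3 led in WT (51.7%) and in corrected muscle (51.8%). Timp1 was the second inhibitor of delEx44 muscle at 4 weeks, with 30.4% of the summed level. In the ADAMTS family Adamts1 led in 8 of the 9 groups, while in delEx44 muscle at 4 weeks Adamts2 (21.6%) was ahead of Adamts1 (19.0%).

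The first question was which of these genes differ between delEx44 and WT muscle. Differences were tested with edgeR over all genes, p-values were adjusted over all genes by the Benjamini-Hochberg method, and a gene is said to rise or fall, or to be higher or lower by the test, only where the adjusted p was under 0.05. At 4 weeks 15 of the 42 genes were higher and 5 lower in delEx44 muscle, that is 35.7% and 11.9%, where 25.2% and 25% of all genes tested were higher and lower. After running 14 were higher and 0 lower, that is 33.3% higher, where 14.9% and 14.2% of all genes were higher and lower. At 18 months 21 of 40 were higher and 1 lower, that is 52.5% and 2.5%, where 28.8% and 23.8% of all genes were. The median log2 fold change of the genes was 0.23, 0.47 and 0.78 at the 3 stages, while the median of all genes tested was -0.00, -0.01 and 0.05. Timp1, Mmp2, Mmp3, Mmp11, Mmp14, Mmp19 and Adamts7 rose at all 3 stages, 7 of the 40 genes tested at each (17.5%), where 11% of all genes did. Summed markers of other cells differed with genotype at 18 months. Fibro-adipogenic progenitor markers were at 2848 to 3087 CPM in delEx44 against 1590 to 1820 in WT muscle, and adipocyte markers at 1025 to 1278 against 632 to 730. Bone and osteoclast markers were at 65.6 to 91.8 against 18.7 to 20.5, and tendon and cartilage markers at 541 to 640 against 457 to 480. Single tendon and cartilage markers went both ways. Thbs4 was at 317 to 381 against 155 to 166 CPM, and Tnmd, Scx and Matn3 were also higher in delEx44. Fmod was lower, at 178 to 211 against 252 to 267 CPM, as were Chad and Col11a2. At most 2 of the 8 bone and osteoclast markers and 1 of the 6 adipocyte markers were at 0 in a library of these groups. The bone and osteoclast sum was mostly Ctsk, at 46.0 to 63.8 against 10.4 to 11.3 CPM, and Acp5, at 17.6 to 25.6 against 5.97 to 6.62. Dmp1 was also higher in delEx44, Calcr was lower (0.288 to 0.629 against 0.697 to 1.41 CPM), and Bglap, Sp7 and Ibsp were at most 0.180. Among the adipocyte markers Lep was lower in delEx44, at 15.2 to 37.1 against 79.2 to 121 CPM. After running the progenitor sum was at 2836 to 3469 against 2341 to 2715 CPM, and at 4 weeks it overlapped. The largest part of this sum was Gsn, which overlapped between delEx44 and WT at both of these stages, as did Dpp4. At 4 weeks Lum (315 to 360 against 148 to 162 CPM), Pdgfra, Ly6a and Pi16 were higher in delEx44 without overlap, while Cd34 overlapped. After running Lum, Pdgfra, Ly6a and Cd34 were higher without overlap, while Pi16 overlapped. The part of these cells and of macrophages in the counts was not tested. The run groups had 2 libraries each, against 3 at the other stages. In whole muscle, more cells of a type and more RNA per cell cannot be told apart for any of these genes.

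**Figure D1:**
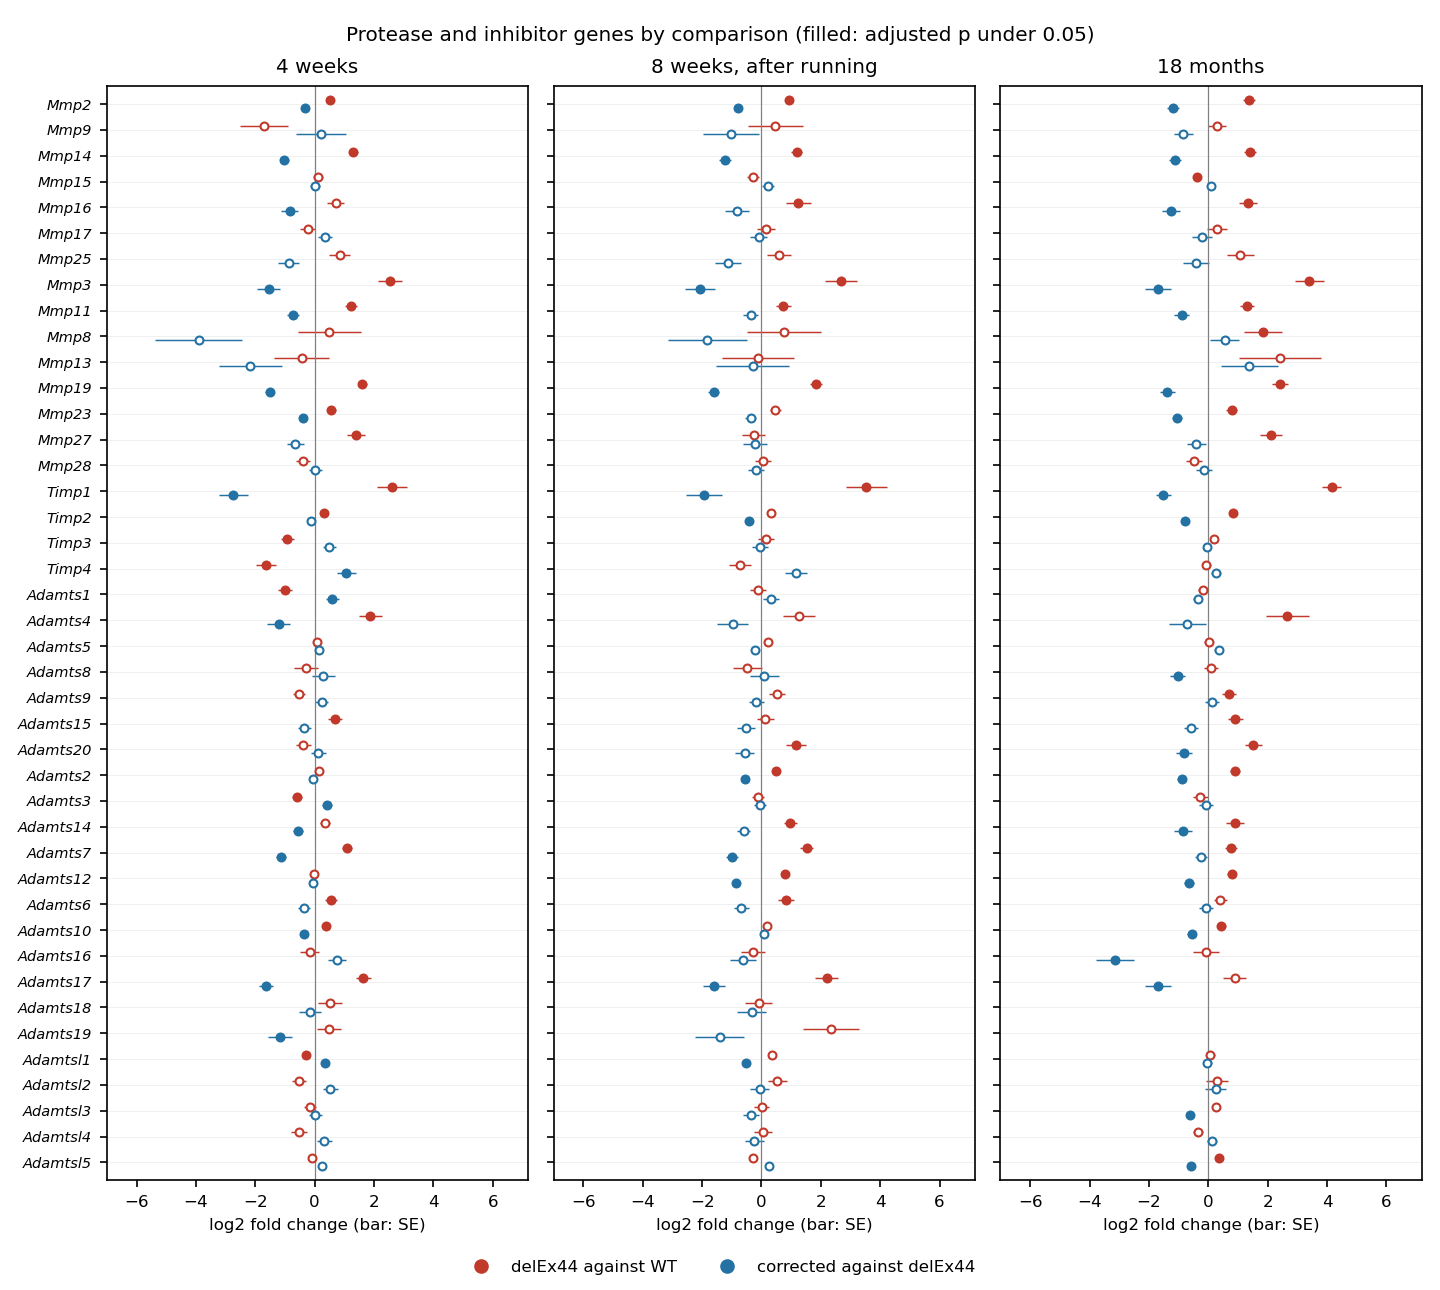
Log2 fold changes of the tested genes at 4 weeks, after running and at 18 months, for delEx44 against WT (red) and corrected against delEx44 (blue), with bars for the SE and filled points where the adjusted p was under 0.05. At 18 months 21 genes had filled red points to the right of 0 and 1 to the left, and the 19 filled blue points all lay to the left; both colours share the delEx44 libraries.

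Among the inhibitors, Timp1 rose and Timp3 and Timp4 fell in delEx44 muscle at 4 weeks. Timp1, a broad metalloproteinase inhibitor that also has growth factor activity, lies on chromosome X, 20870166 to 20874735 (GRCm38, plus strand), inside Syn1. Its level at 4 weeks was 4.31, 6.03 and 9.19 CPM in WT libraries, 43.1, 30.4 and 46.1 in delEx44 libraries and 6.64, 6.53 and 4.72 in corrected libraries. Every delEx44 library was more than 3 times above the highest WT or corrected library. After running it was 1.75 and 1.81 CPM in WT libraries, 8.67 and 32.6 in delEx44 libraries and 2.95 and 7.68 in corrected libraries. The 2 delEx44 libraries after running thus differed from each other by more than the lower one differed from corrected muscle. Timp1 at 18 months was at 0.470, 0.498 and 0.852 CPM in WT libraries, 11.6, 9.75 and 10.3 in delEx44 libraries and 5.14, 2.36 and 3.64 in corrected libraries, and no groups overlapped.

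The log2 fold change of Timp1 in delEx44 against WT was 2.61 ± 0.50 (SE) at 4 weeks, 3.53 ± 0.68 after running and 4.15 ± 0.31 at 18 months (adjusted p = 0.0015, 0.0039 and 1.04e-05). The value after running missed the threshold when only the 2 groups were fitted (adjusted p = 0.10). Timp1 fell in corrected against delEx44 muscle by 2.74 ± 0.50, 1.95 ± 0.61 and 1.51 ± 0.25 on the log2 scale (adjusted p = 0.0014, 0.043 and 0.0011). The fall after running was lost without delEx44 replicate 2 (adjusted p = 0.41), without corrected replicate 1 (0.25), when only the 2 groups were fitted (0.24) and without the filter on low counts (0.066).

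Timp2, which takes part in the activation of pro-Mmp2 by Mmp14 as well as inhibiting it, lies on chromosome 11, 118301069 to 118355740 (minus strand). Its level at 18 months was 260, 236 and 215 CPM in WT libraries, 422, 412 and 437 in delEx44 libraries and 285, 213 and 242 in corrected libraries. The delEx44 libraries stood clear of both other groups, which overlapped. Timp2 rose by 0.84 ± 0.11 on the log2 scale in delEx44 against WT (adjusted p = 0.00015) and fell by 0.78 ± 0.11 in corrected against delEx44 muscle (adjusted p = 0.00036). At 4 weeks the rise in delEx44 was smaller, 0.31 ± 0.11 (adjusted p = 0.026), with 311 to 344 CPM against 242 to 276 in WT, and it missed the threshold without WT replicate 2 (adjusted p = 0.10), delEx44 replicate 1 (0.078) or delEx44 replicate 2 (0.052).

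Timp3, which binds to the matrix and also restrains the sheddase Adam17, lies on chromosome 10, 86300372 to 86349506, inside Syn3 on the other strand. Its level at 4 weeks was 277, 219 and 228 CPM in WT libraries, 107, 146 and 132 in delEx44 libraries and 164, 191 and 185 in corrected libraries. The 3 groups did not overlap, and corrected libraries lay between those of delEx44 and WT. Timp3 fell by 0.92 ± 0.22 on the log2 scale in delEx44 against WT (adjusted p = 0.0044), and the 0.49 ± 0.22 difference of corrected from delEx44 muscle did not pass (adjusted p = 0.084). At 18 months Timp3 was at 562 to 645 CPM in WT and 634 to 791 in delEx44 muscle, ranges that overlapped (log2 fold change 0.19 ± 0.13, adjusted p = 0.23). After running the 2 delEx44 libraries had 336 and 169 CPM, on either side of the 212 and 245 CPM of WT.

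Timp4, the inhibitor with the most restricted expression, found in heart and skeletal muscle among other tissues, lies on chromosome 6, 115241892 to 115252205, inside Syn2. At 4 weeks it was at 43.2, 47.1 and 41.3 CPM in WT libraries, 13.7, 12.2 and 16.4 in delEx44 libraries and 20.1, 27.9 and 40.7 in corrected libraries. All delEx44 libraries were under all corrected libraries, and these under all WT libraries. Timp4 fell by 1.64 ± 0.32 on the log2 scale in delEx44 (adjusted p = 0.0018) while corrected muscle exceeded delEx44 muscle by 1.07 ± 0.32 (adjusted p = 0.020), a call lost without delEx44 replicate 1 (adjusted p = 0.063), delEx44 replicate 2 (0.066) or corrected replicate 3 (0.084). At 18 months the 3 groups overlapped, at 46.0 to 49.6 CPM in WT, 39.4 to 56.6 in delEx44 and 42.9 to 63.2 in corrected muscle. The counting strand is not given in the sources used here, so reads from the overlapping Syn3 and Syn2 exons (1733 and 90 bases) cannot be told from those of Timp3 and Timp4.

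**Figure D2:**
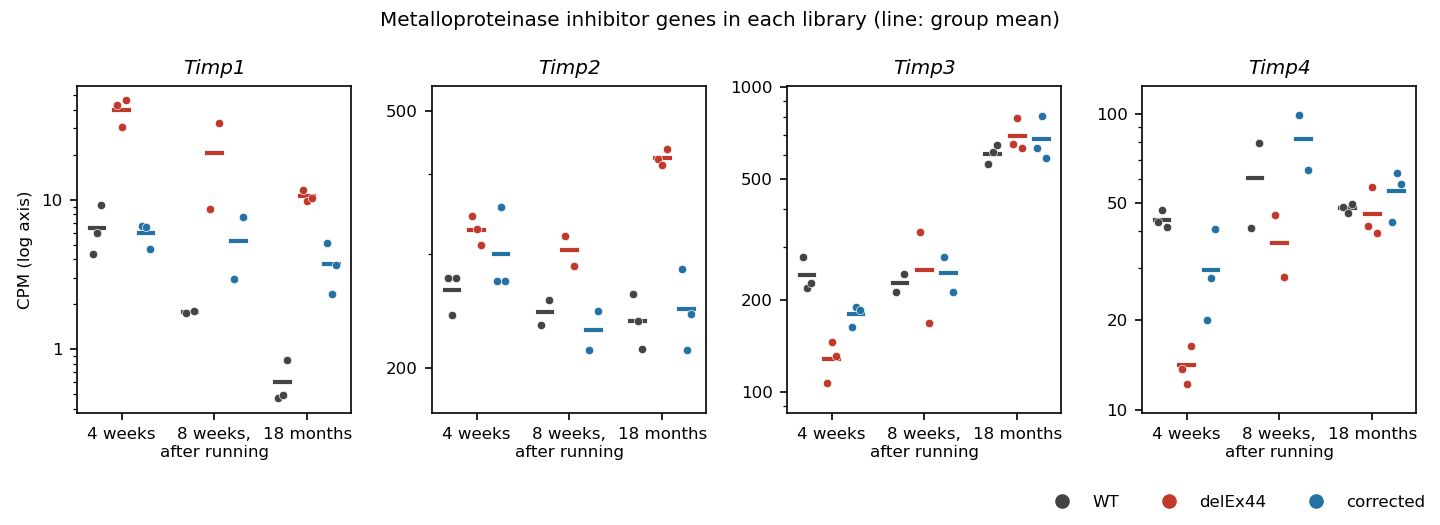
Levels of the 4 Timp genes in every library, in CPM on a log axis, by stage and genotype, with a line at the group mean. Timp1 separates delEx44 from WT at each stage, Timp3 and Timp4 are lower in delEx44 at 4 weeks and overlap between genotypes at 18 months, and Timp2 is highest in delEx44 at 18 months (412 to 437 CPM).

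The gelatinase Mmp2, which cuts denatured collagen and type IV collagen of the basement membrane, lies on chromosome 8, 92827291 to 92853420. At 4 weeks it was at 185, 164 and 183 CPM in WT libraries, 259, 276 and 233 in delEx44 libraries and 191, 231 and 192 in corrected libraries. At 18 months it was at 83.3, 79.2 and 70.7 CPM in WT libraries, 217, 188 and 204 in delEx44 libraries and 122, 67.3 and 78.1 in corrected libraries. At both ages the lowest delEx44 library was above the highest library of the other groups, by a small margin at 4 weeks and a wide one at 18 months. The log2 fold change of Mmp2 in delEx44 against WT was 0.53 ± 0.10 at 4 weeks, 0.93 ± 0.12 after running and 1.38 ± 0.20 at 18 months (adjusted p = 0.00078, 0.00022 and 0.00068). Mmp2 fell in corrected against delEx44 muscle by 0.32 ± 0.10, 0.80 ± 0.12 and 1.19 ± 0.20 (adjusted p = 0.019, 0.0010 and 0.0020). The fall at 4 weeks missed the threshold without delEx44 replicate 2 (adjusted p = 0.068), corrected replicate 1 (0.073) or corrected replicate 3 (0.075).

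Mmp14, the membrane-type enzyme that activates Mmp2 at the cell surface, lies on chromosome 14, 54431612 to 54445364. Its level was 54.5, 45.2 and 50.4 CPM in WT libraries, 134, 131 and 107 in delEx44 libraries and 61.4, 65.7 and 55.9 in corrected libraries at 4 weeks. After running it was 33.8 and 29.3, 64.6 and 79.1, and 23.6 and 37.7 CPM in the same order, and at 18 months 23.0, 20.2 and 18.4, 60.4, 48.6 and 53.7, and 33.8, 18.2 and 22.3 CPM. The delEx44 libraries lay above all others of their stage throughout. The log2 fold change of Mmp14 in delEx44 against WT was 1.31 ± 0.16, 1.19 ± 0.19 and 1.40 ± 0.21 at the 3 stages (adjusted p = 3.48e-05, 0.00097 and 0.00079). Mmp14 fell in corrected against delEx44 muscle by 1.02 ± 0.16, 1.23 ± 0.19 and 1.13 ± 0.21 (adjusted p = 0.00025, 0.0013 and 0.0031), and the value after running missed the threshold when only the 2 groups were fitted (adjusted p = 0.061).

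Of the other membrane-type genes, Mmp16 rose in delEx44 after running (log2 fold change 1.24 ± 0.42, adjusted p = 0.040) and at 18 months (1.34 ± 0.31, adjusted p = 0.0048), at levels of 0.366 CPM in WT and 0.915 in delEx44 muscle at 18 months. The call after running was lost without any 1 of the 4 run libraries (adjusted p = 0.087 to 0.16) and when only the 2 groups were fitted (0.053). Mmp15 was the only member that fell in delEx44 muscle at 18 months. Its libraries had 22.9, 20.4 and 18.7 CPM in WT and 15.0, 17.2 and 15.6 in delEx44 muscle, a fall by 0.37 ± 0.09 on the log2 scale (adjusted p = 0.0065). Mmp17 and Mmp25 did not pass in any genotype comparison with all libraries.

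Mmp19, a protease of basement membrane and other matrix proteins that lies on chromosome 10, 128790910 to 128800824, had the smallest p of the 50 genes in delEx44 against WT at 4 weeks and after running. Its 4-week libraries were at 11.7, 11.5 and 12.6 CPM in WT libraries, 36.8, 31.7 and 39.7 in delEx44 libraries and 11.6, 13.7 and 12.7 in corrected libraries. Those at 18 months were at 10.0, 8.10 and 7.86 CPM in WT libraries, 42.7, 53.2 and 42.3 in delEx44 libraries and 25.8, 11.8 and 15.4 in corrected libraries. Corrected libraries overlapped with WT at 4 weeks and lay between WT and delEx44 at 18 months. The log2 fold change of Mmp19 in delEx44 against WT was 1.60 ± 0.15, 1.84 ± 0.19 and 2.41 ± 0.27 at the 3 stages (adjusted p = 5.13e-06, 5.47e-05 and 0.00024). In corrected against delEx44 muscle it fell by 1.51 ± 0.15, 1.61 ± 0.19 and 1.38 ± 0.26 (adjusted p = 1.28e-05, 0.00024 and 0.0038). Exons of genes on the other strand overlap 1001 bases of Mmp19.

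Mmp11, a stromelysin that is activated inside the cell, was at 2.42 to 3.15 CPM in WT and 4.81 to 8.12 in delEx44 muscle at 4 weeks. It rose by 1.23 ± 0.21, 0.74 ± 0.24 and 1.30 ± 0.25 on the log2 scale in delEx44 at the 3 stages (adjusted p = 0.00030, 0.037 and 0.0017). The call after running was lost without WT run replicate 1 (adjusted p = 0.15) or 2 (0.10), delEx44 run replicate 2 (0.25) and when only the 2 groups were fitted (0.058). In corrected against delEx44 muscle it fell at 4 weeks by 0.73 ± 0.20 (adjusted p = 0.0093), which missed the threshold without delEx44 replicate 1 (adjusted p = 0.052). Mmp23, a membrane-anchored protease without the usual cysteine switch, rose in delEx44 at 4 weeks by 0.57 ± 0.15 (adjusted p = 0.0054) and at 18 months by 0.78 ± 0.17 (adjusted p = 0.0035). Mmp23 fell in corrected against delEx44 muscle at 18 months by 1.05 ± 0.17 (adjusted p = 0.0010), with 1.40 to 1.89 CPM in corrected, 3.13 to 3.86 in delEx44 and 1.88 to 2.06 in WT libraries.

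The stromelysin Mmp3 belongs to a cluster of metalloproteinase genes on chromosome 9 in which 9 of the 50 genes lie within 427 kb (7272514 to 7699585). From one end to the other these are Mmp13, Mmp1b, Mmp3, Mmp1a, Mmp10, Mmp8, Mmp27, Mmp20 and Mmp7, and 4 of them, Mmp13, Mmp3, Mmp8 and Mmp27, passed the filter. Promoters of this cluster are known for a binding site of AP-1, the Fos and Jun transcription factors, close to the start site. RefSeq start sites on GRCm38.p6 gave promoters of 250 bases before to 50 after the start for 35 of the 50 genes, 37 promoters in all. The AP-1 motif TGAGTCA, searched on both strands, was found in 16.2% of these promoters and in 5.2% of 32851 mouse promoters of the same length. The 6 genes that hold it all lie in the cluster (Mmp13, Mmp1b, Mmp3, Mmp1a, Mmp10 and Mmp7). The TATA motif TATAAA was found in 29.7% against 13.6%, and the ETS motif AGGAAG in 40.5% against 35.4%. The 150 bases before the start site are printed here for 4 cluster genes. Mmp3 has the motif and was higher in delEx44 than in both other genotypes. Mmp13, with the motif, and Mmp8, without it, had their highest 4-week level in the same WT library. Mmp1a has the motif and is listed at 0 counts. All 4 are on the plus strand, written 5′ to 3′ and ending at the base before the start, with the AP-1 match in capitals.
Mmp3, chr9:7445672-7445821: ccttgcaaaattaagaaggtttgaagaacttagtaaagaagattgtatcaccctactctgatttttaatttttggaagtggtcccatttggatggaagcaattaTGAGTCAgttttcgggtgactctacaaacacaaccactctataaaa
Mmp13, chr9:7272364-7272513: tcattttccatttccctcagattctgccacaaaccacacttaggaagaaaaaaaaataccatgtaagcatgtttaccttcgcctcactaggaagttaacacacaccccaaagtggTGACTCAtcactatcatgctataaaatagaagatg
Mmp1a, chr9:7463991-7464140: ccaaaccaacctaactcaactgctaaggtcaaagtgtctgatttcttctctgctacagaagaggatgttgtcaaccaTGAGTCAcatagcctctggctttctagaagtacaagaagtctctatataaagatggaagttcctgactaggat
Mmp8, chr9:7558279-7558428: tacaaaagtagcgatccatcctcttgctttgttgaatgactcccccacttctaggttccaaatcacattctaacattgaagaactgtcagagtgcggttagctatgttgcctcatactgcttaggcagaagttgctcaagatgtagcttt
The match starts 46 bases before the start site in Mmp3, 35 in Mmp13, where it is on the other strand (TGACTCA), and 73 in Mmp1a. Whether AP-1 binds any of these promoters in muscle was not measured.

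**Figure D3:**
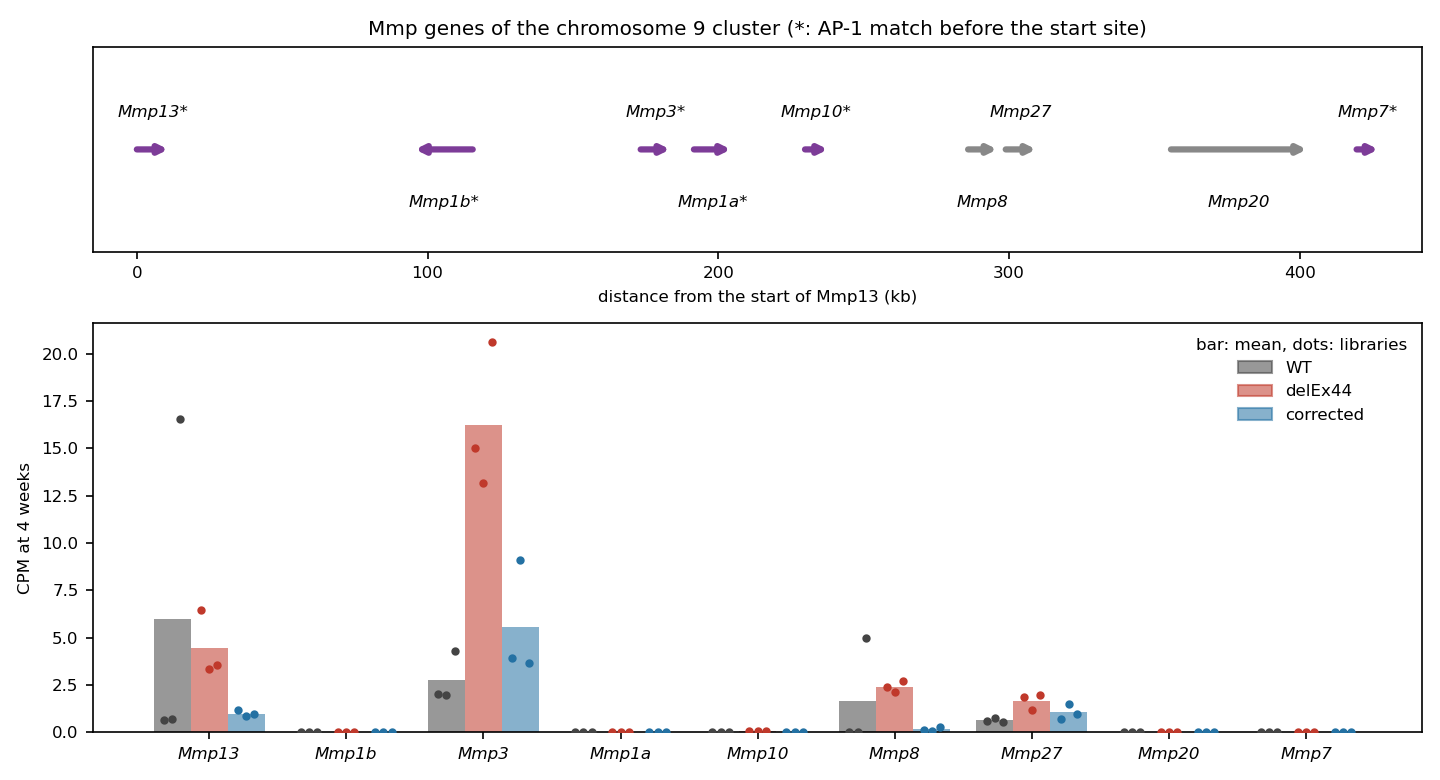
Upper panel: the 9 genes of the chromosome 9 cluster by distance from the start of Mmp13 in kb, as arrows in the direction of transcription, with an asterisk where the promoter holds the AP-1 motif. Lower panel: their CPM at 4 weeks, not divided by gene length, with bars for group means and points for libraries; Mmp3 is at 13.1 to 20.6 CPM in delEx44 and at most 9.09 elsewhere, and 1 WT library stands out in Mmp13 and Mmp8.

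Mmp3, at positions 7445822 to 7455975, cuts proteoglycans, fibronectin and laminin and activates other metalloproteinases. Its 4-week level was 2.02, 1.95 and 4.28 CPM in WT libraries, 15.0, 13.1 and 20.6 in delEx44 libraries and 3.91, 9.09 and 3.66 in corrected libraries. After running it was at 1.75 and 0.847, 7.64 and 9.08, and 1.9 and 2.09 CPM in the same order, and at 18 months at 2.06, 2.13 and 2.56, 22.8, 19.4 and 28.9, and 12.7, 3.00 and 6.28 CPM. The delEx44 libraries lay above all others at each stage, and the corrected libraries at 18 months lay above all WT libraries but spread over a wider range than either. The log2 fold change of Mmp3 in delEx44 against WT was 2.55 ± 0.41, 2.69 ± 0.54 and 3.40 ± 0.49 (adjusted p = 0.00036, 0.0037 and 0.00089). In corrected against delEx44 muscle it fell by 1.55 ± 0.38, 2.06 ± 0.51 and 1.69 ± 0.43 (adjusted p = 0.0066, 0.015 and 0.017). The fall after running missed the threshold without delEx44 replicate 2 (adjusted p = 0.066), corrected replicate 1 (0.11) or corrected replicate 3 (0.064), and that at 18 months without delEx44 replicate 3 (0.055).

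Mmp27, which carries no AP-1 match in its promoter, rose in delEx44 at 4 weeks by 1.39 ± 0.31 on the log2 scale (adjusted p = 0.0024) and at 18 months by 2.12 ± 0.37 (adjusted p = 0.00098). Its levels were low, 0.565 to 0.758 CPM in WT and 1.20 to 1.95 in delEx44 at 4 weeks. After running its WT libraries had 0.712 and 0.931 CPM and its delEx44 libraries 0.817 and 0.554, and the groups overlapped.

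The collagenases Mmp8 and Mmp13 and the gelatinase Mmp9 were set by 1 library at 4 weeks. Mmp8 is known as neutrophil collagenase, Mmp9 is stored in neutrophil granules and made in osteoclasts, and Mmp13 is made in cartilage and bone. Mmp8 was at 0.0315, 0 and 5.00 CPM in WT replicates 1 to 3, which is 1, 0 and 168 counts, and at 2.40, 2.13 and 2.73 CPM in delEx44 muscle. Mmp13 was at 0.661, 0.722 and 16.6 CPM in WT and 6.46, 3.34 and 3.54 in delEx44 muscle, and Mmp9 at 3.56, 2.38 and 26.5 CPM in WT and 2.06, 3.81 and 4.20 in delEx44 muscle. In each of the 3 genes WT replicate 3, the library with raised neutrophil, bone and osteoclast markers, was above every other 4-week library, and the part of those cells in the values was not tested. With all libraries none of the 3 genes passed in delEx44 against WT at 4 weeks (log2 fold changes 0.49 ± 1.07 for Mmp8, -0.44 ± 0.93 for Mmp13 and -1.70 ± 0.81 for Mmp9). Without WT replicate 3 the value was 6.90 for Mmp8 (adjusted p = 9.12e-05) and 2.68 for Mmp13 (adjusted p = 0.00017), while Mmp9 was at 0.16. That Mmp8 fold rests on 1 count in 2 WT libraries.

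At 18 months Mmp8 rose in delEx44 by 1.84 ± 0.63 on the log2 scale (adjusted p = 0.032), from 0.0996 to 0.289 CPM in WT to 0.479 to 0.765 in delEx44 muscle. The call was lost without WT library b (adjusted p = 0.12), WT replicate 3 (0.089), delEx44 replicate 2 (0.071) or delEx44 replicate 3 (0.082). Mmp13 was at 0.0947 to 0.109 CPM in WT and 0.352 to 0.719 in delEx44 muscle at that age, groups that did not overlap, but its fold change did not pass (2.41 ± 1.39, adjusted p = 0.18). The corrected libraries had 3.59, 0.0400 and 0.749 CPM of Mmp13, from below all WT to above all delEx44 libraries. Mmp9 was at 4.45 to 7.16 CPM in WT, 6.95 to 7.87 in delEx44 and 2.56 to 6.56 in corrected muscle at 18 months, and none of its 9 genotype comparisons passed.

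**Figure D4:**
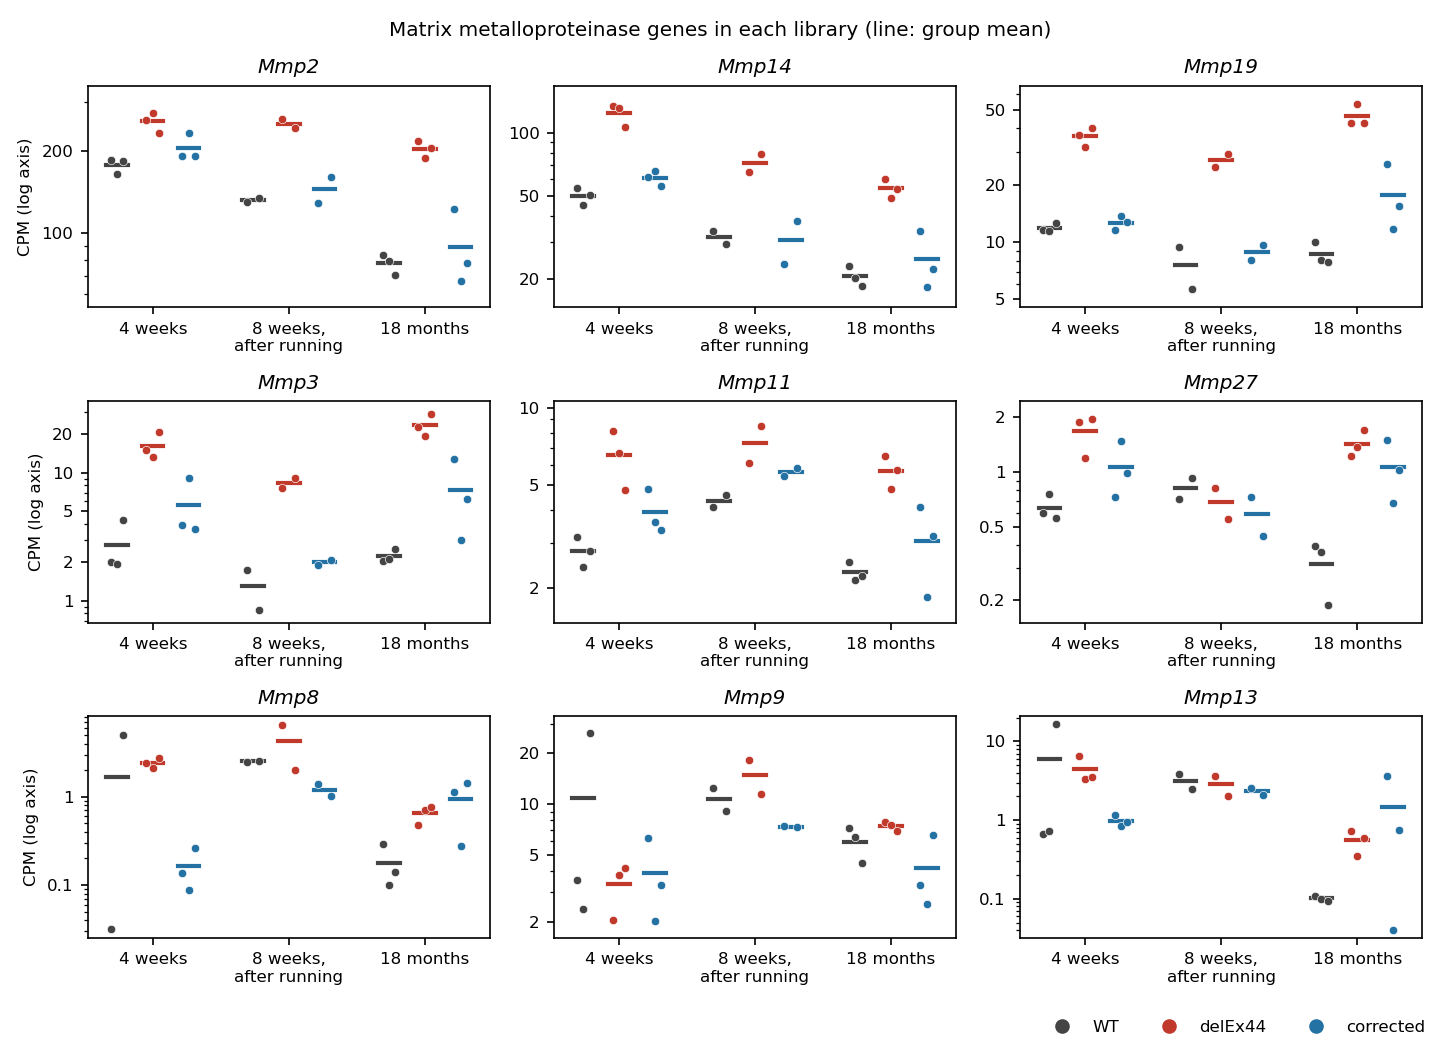
Levels of Mmp genes in every library, in CPM on a log axis, by stage and genotype, with a line at the group mean. Mmp2, Mmp14, Mmp19 and Mmp3 are higher in delEx44 than in WT at each stage, and in Mmp9, Mmp8 and Mmp13 the 4-week WT replicate 3 (26.5, 5.00 and 16.6 CPM) stands above the other WT libraries.

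The ADAMTS family was counted by substrate, and the classes were not tested against each other. Over all genes 25.2%, 14.9% and 28.8% were higher in delEx44 against WT at 4 weeks, after running and at 18 months, and 25%, 14.2% and 23.8% lower. Of 7 proteoglycanases, which cut versican and aggrecan, 2 rose and 1 fell in delEx44 against WT at 4 weeks, 1 rose after running and 4 rose at 18 months. Of 3 procollagen N-proteinases, which remove the amino-terminal ends of fibrillar procollagens, 0 rose and 1 fell at 4 weeks, and 2 rose after running and at 18 months. Of the other proteases 4 of 8 rose at 4 weeks, 4 of 8 after running and 3 of 6 at 18 months. Of the 5 ADAMTS-like genes 1 fell at 4 weeks, 0 changed after running and 1 rose at 18 months.

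Adamts1, a proteoglycanase that also binds the angiogenic factor VEGF, lies on chromosome 16, 85793827 to 85803113. At 4 weeks it was at 82.5, 95.2 and 73.9 CPM in WT libraries, 35.8, 48.8 and 41.6 in delEx44 libraries and 67.8, 52.2 and 71.2 in corrected libraries, with no overlap between the groups. It fell by 1.00 ± 0.22 on the log2 scale in delEx44 (adjusted p = 0.0035) while corrected muscle exceeded delEx44 muscle by 0.60 ± 0.22 (adjusted p = 0.047), a call lost without delEx44 replicate 1 (adjusted p = 0.17) or 3 (0.11), corrected replicate 1 (0.11) or 3 (0.14) and without the filter on low counts (0.071). At 18 months it was at 105 to 121 CPM in WT and 74.6 to 114 in delEx44 muscle, which overlapped. Adamts4, an aggrecanase, moved the other way at 4 weeks, at 2.90, 3.10 and 2.11 CPM in WT and 12.3, 10.6 and 6.88 in delEx44 muscle. It rose by 1.88 ± 0.40 at 4 weeks (adjusted p = 0.0022) and by 2.67 ± 0.74 at 18 months (adjusted p = 0.016), the latter lost without WT library a (0.057) or WT replicate 3 (0.055). Adamts15, another proteoglycanase, rose at 4 weeks by 0.69 ± 0.23 (adjusted p = 0.024) and at 18 months by 0.92 ± 0.24 (adjusted p = 0.0093). Its call at 4 weeks was lost without WT replicates 2 (0.075) or 3 (0.087) or delEx44 replicates 2 (0.059) or 3 (0.065).

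Adamts7, a protease of the cartilage protein Comp, lies on chromosome 9, 90163069 to 90208071, outside the cluster. At 4 weeks it was at 2.99, 4.33 and 3.39 CPM in WT libraries, 8.99, 7.47 and 6.39 in delEx44 libraries and 3.81, 2.91 and 3.69 in corrected libraries. By 18 months it was at 1.13 to 1.47 CPM in WT, 2.01 to 2.37 in delEx44 and 1.54 to 2.08 in corrected muscle. Corrected libraries lay with WT at 4 weeks and reached those of delEx44 at 18 months. Adamts7 rose in delEx44 by 1.10 ± 0.17, 1.53 ± 0.21 and 0.77 ± 0.20 on the log2 scale (adjusted p = 0.00014, 0.00030 and 0.0080). In corrected against delEx44 muscle it fell by 1.13 ± 0.17 at 4 weeks and 0.99 ± 0.21 after running (adjusted p = 0.00014 and 0.0053), while at 18 months the difference was -0.24 ± 0.19 (adjusted p = 0.34).

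Adamts17, a secreted protease linked to the fibrillin microfibrils of the eye, lies on chromosome 7, 66839735 to 67153171. Its level at 4 weeks was 1.67, 1.88 and 1.64 CPM in WT libraries, 4.57, 6.79 and 4.74 in delEx44 libraries and 1.70, 1.31 and 2.18 in corrected libraries. WT and corrected libraries overlapped, and delEx44 libraries were all above them. Adamts17 rose in delEx44 by 1.64 ± 0.25 on the log2 scale at 4 weeks (adjusted p = 0.00014) and by 2.20 ± 0.39 after running (adjusted p = 0.0012). At 18 months its level was 0.189 to 0.217 CPM in WT and 0.329 to 0.448 in delEx44 muscle, and the difference did not pass (0.89 ± 0.39, adjusted p = 0.075). Corrected muscle had less Adamts17 than delEx44 muscle by 1.64 ± 0.25, 1.60 ± 0.36 and 1.70 ± 0.43 at the 3 stages (adjusted p = 0.00018, 0.0079 and 0.010). The value after running missed the threshold without delEx44 replicate 2 (adjusted p = 0.082) or corrected replicate 1 (0.088) and when only the 2 groups were fitted (0.069), and that at 18 months with DESeq2 (0.054).

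Adamts2, the main procollagen I N-proteinase of skin and other connective tissue, and Adamts12, a relative of Adamts7 on chromosome 15 (11064790 to 11349231), did not separate the genotypes at 4 weeks. Adamts12 was at 34.3, 31.9 and 28.5 CPM in WT libraries, 32.4, 34.6 and 27 in delEx44 libraries and 29.0, 30.5 and 30.6 in corrected libraries at that age. After running it was at 10.5 and 12.0 CPM in WT libraries, 19.1 and 19.6 in delEx44 libraries and 10.1 and 11.2 in corrected libraries, and at 18 months at 7.24, 7.77 and 8.48, 14.3, 11.8 and 14.3, and 10.8, 8.08 and 6.81 CPM. The groups overlapped at 4 weeks, and delEx44 stood above both others at the later stages. Adamts12 rose in delEx44 by 0.78 ± 0.12 on the log2 scale after running (adjusted p = 0.00051) and by 0.78 ± 0.16 at 18 months (adjusted p = 0.0024), against -0.01 ± 0.09 at 4 weeks.

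Adamts2 was at 69.8 to 77.5 CPM in WT and 77.0 to 90.3 in delEx44 muscle at 4 weeks. At 18 months it was at 24.7, 23.3 and 22.1 CPM in WT libraries, 48.4, 40.3 and 41.9 in delEx44 libraries and 30.0, 18.2 and 21.8 in corrected libraries, and delEx44 did not overlap with the others. It rose by 0.90 ± 0.16 in delEx44 at 18 months (adjusted p = 0.0014) and fell by 0.90 ± 0.16 in corrected against delEx44 muscle (adjusted p = 0.0019). Adamts14, another procollagen N-proteinase, rose in delEx44 after running by 0.97 ± 0.21 (adjusted p = 0.0049) and at 18 months by 0.91 ± 0.30 (adjusted p = 0.026), while Adamts3, the third, fell by 0.60 ± 0.16 at 4 weeks (adjusted p = 0.0069). The Adamts14 call after running was lost without WT replicate 2 (adjusted p = 0.059), and that at 18 months without WT library b, WT replicate 3 or delEx44 replicate 1 or 3 (0.066 to 0.099). Adamts20, a relative of Adamts9, was at 3.79 to 4.32 CPM in WT and 10.5 to 13.3 in delEx44 muscle at 18 months, a rise by 1.51 ± 0.28 (adjusted p = 0.0019).

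**Figure D5:**
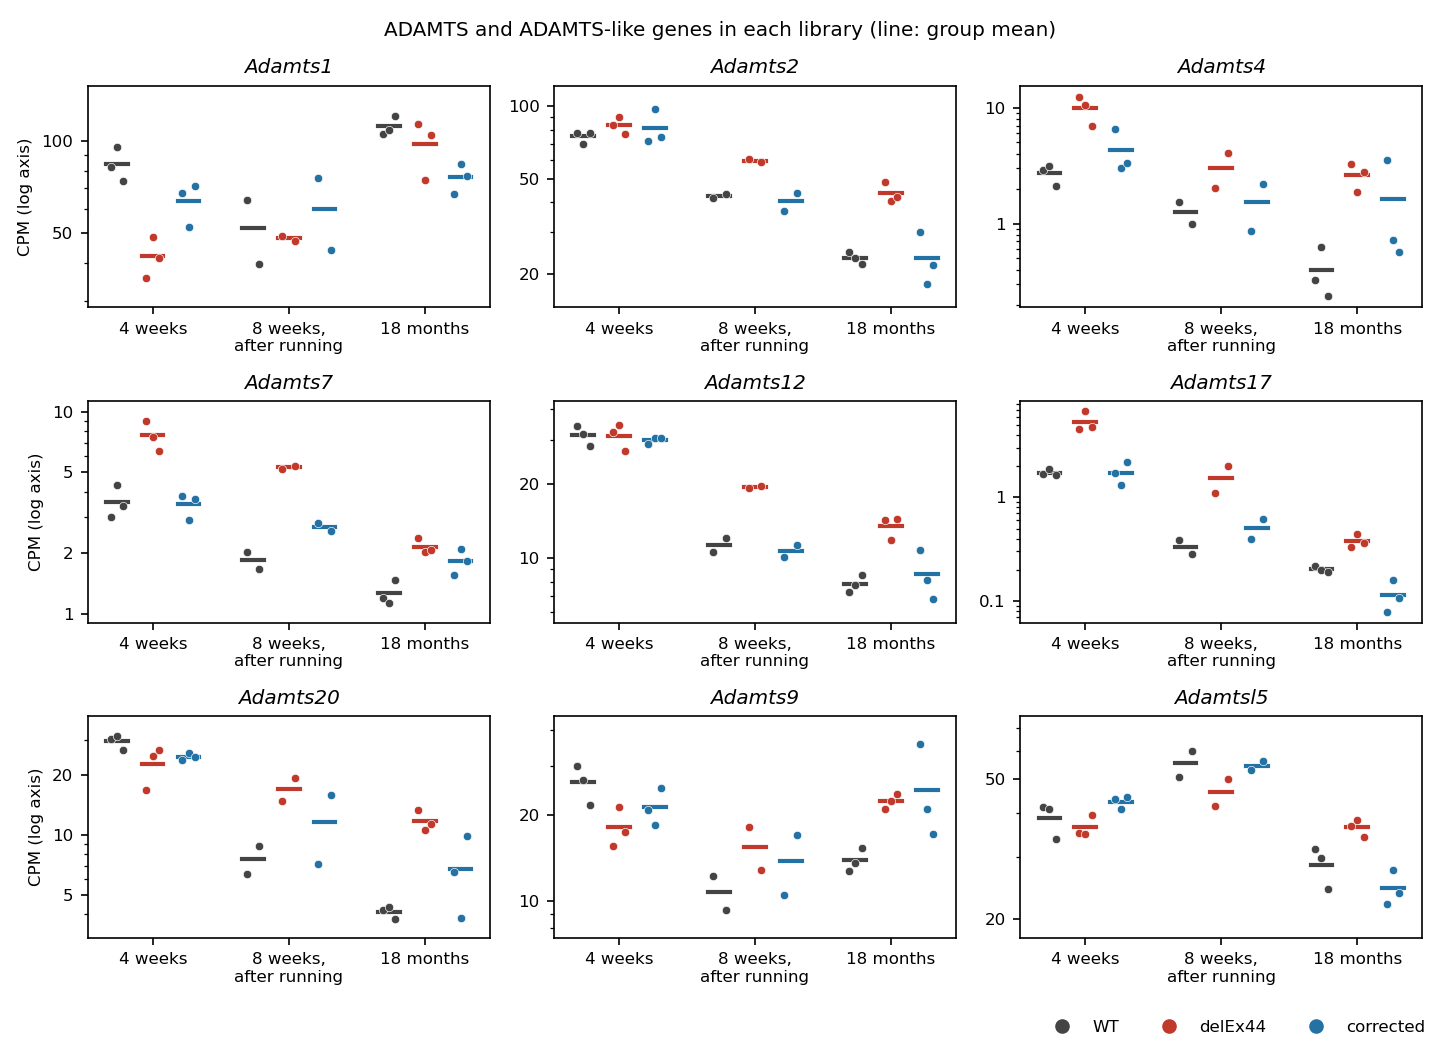
Levels of 9 ADAMTS and ADAMTS-like genes in every library, in CPM on a log axis, by stage and genotype, with a line at the group mean. Adamts12 and Adamts2 overlap between genotypes at 4 weeks and are higher in delEx44 at 18 months, Adamts1 is lower in delEx44 at 4 weeks (35.8 to 48.8 CPM), and Adamts7 and Adamts17 are higher in delEx44 at 4 weeks.

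The second question was how corrected muscle compares with delEx44 muscle. At 4 weeks 4 of the 42 genes were higher and 14 lower in corrected muscle (9.52% and 33.3%), where 22.1% and 24.2% of all genes were. After running 0 were higher and 11 lower (26.2%), where 10.8% and 12.4% of all genes were. At 18 months 0 of 40 were higher and 19 lower (47.5%), where 19.6% and 21.4% of all genes were. The median log2 fold change of the genes was -0.14, -0.46 and -0.58 at the 3 stages. The 4 genes that were higher at 4 weeks were Timp4, Adamts1, Adamts3 and Adamtsl1. The call of Adamts3 was lost in 6 other fits (adjusted p up to 0.21; without delEx44 replicate 1 or 3 or corrected replicate 1 or 2, without the filter, or with only the 2 groups), and that of Adamtsl1 without delEx44 replicate 1 or 3 or corrected replicate 2 (up to 0.072). This comparison uses the same delEx44 libraries as the comparison with WT, so opposite values in the pair are not independent.

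By class, in corrected against delEx44 muscle, the counts of falls at 4 weeks, after running and at 18 months were 1, 1 and 1 of 2 gelatinases, 2, 1 and 2 of 5 membrane-type genes, 2, 1 and 2 of 2 stromelysins and 2, 1 and 2 of 4 other metalloproteinases. Of the 2 collagenases tested, 0 fell at any stage. Of 8 ADAMTS proteases outside the proteoglycanases and N-proteinases 4 fell at 4 weeks and 3 after running, and of 6 tested at 18 months 4 fell. Over all genes 24.2%, 12.4% and 21.4% fell at the 3 stages, and the classes were not tested against each other. Adamts12 fell by 0.86 ± 0.12 on the log2 scale after running and by 0.65 ± 0.16 at 18 months (adjusted p = 0.00055 and 0.0082), and Adamts2 by 0.56 ± 0.13 after running (adjusted p = 0.0092), which missed the threshold without corrected replicate 1 (adjusted p = 0.11). Adamts10, a protease that binds fibrillin, fell by 0.35 ± 0.09 at 4 weeks (adjusted p = 0.0090).

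Falls at 18 months included ADAMTS-like genes, whose products bind fibrillin microfibrils or other matrix. Adamtsl5 was at 31.6, 29.8 and 24.4 CPM in WT libraries, 36.8, 38.2 and 34.3 in delEx44 libraries and 22.1, 27.6 and 23.7 in corrected libraries, and delEx44 libraries were above all others. It fell by 0.58 ± 0.11 in corrected against delEx44 muscle (adjusted p = 0.0021), and Adamtsl3 fell by 0.61 ± 0.12 (adjusted p = 0.0032). The count of 18 genes at 4 weeks came to 9 without delEx44 replicate 1 and 11 without corrected replicate 3, where 5321 and 5494 of all genes were called in place of 6945. The count of 11 after running came to 6 when only the 2 groups were fitted, where 1256 of all genes were called in place of 3485. It was also lower without delEx44 replicate 2 or corrected replicate 1, fits that leave 1 library in a group, and so was the count of all genes.

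The third question was what still differed between corrected and WT muscle. At 4 weeks 0 of the 42 genes passed, where 0% of all genes did in either direction. DESeq2 called 0 of them, where it called 238 of 15013 genes, 196 higher and 42 lower. After running 0 passed, where 0.00666% of all genes were higher and 0.0133% lower. DESeq2 called 0 of them there, where it called 74 of 15013 genes, 50 higher and 24 lower. At an unadjusted p under 0.05 were 6 of the 42 genes at 4 weeks and 3 after running, counts given without those of all genes. A call of 0 does not show that the levels were equal: the corrected value of Mmp3 at 4 weeks was 1.00 ± 0.41 above WT on the log2 scale and that of Timp4 0.57 ± 0.31 below it. At 18 months 3 of 40 genes passed, 2 higher and 1 lower (5.0% and 2.5%), where 2.34% and 2.43% of all genes were. These were Timp1, Mmp27 and Adamts16.

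Timp1 was 2.65 ± 0.32 higher on the log2 scale in corrected than in WT muscle at 18 months (adjusted p = 0.0091), at 2.36 to 5.14 against 0.470 to 0.852 CPM. This call was lost without WT library b (adjusted p = 0.075) and when only the 2 groups were fitted (0.050). Mmp27 was at 1.51, 0.680 and 1.03 CPM in corrected and 0.398, 0.365 and 0.189 in WT muscle (1.71 ± 0.38, adjusted p = 0.038). It missed the threshold without any 1 of the WT libraries or corrected replicate 1 or 3 (adjusted p up to 0.13) and when only the 2 groups were fitted (0.11). Adamts16, a protease best known from kidney and gonad, fell in corrected muscle. It had 16, 29 and 6 counts in the WT libraries, 23, 12 and 21 in delEx44 and 1, 1 and 3 in the corrected libraries. All 3 corrected libraries lay under all 6 others. The log2 fold change was -3.22 ± 0.65 against WT (adjusted p = 0.030) and -3.14 ± 0.64 against delEx44 (adjusted p = 0.0033), and the first was lost without WT library a (adjusted p = 0.089), WT library b (0.12) or corrected replicate 1 (0.088).

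The 3 corrected libraries at 18 months were not alike. Replicate 1 had 25.8 CPM of Mmp19, 12.7 of Mmp3 and 122 of Mmp2, and replicate 2 had 11.8, 3.00 and 67.3. The WT ranges were 7.86 to 10.0, 2.06 to 2.56 and 70.7 to 83.3 CPM, so replicate 2 lay just above WT in Mmp19 and Mmp3 and just below it in Mmp2. Summed macrophage markers were 735, 310 and 1053 CPM in corrected replicates 1, 2 and 3 and 270 to 370 in WT, and their part in the result was not tested. Replicate 2 was lowest in the markers and in all 3 proteases, and replicate 3, highest in the markers, had 15.4 CPM of Mmp19, 6.28 of Mmp3 and 78.1 of Mmp2. The count of 3 genes against WT came to 13 without corrected replicate 2, 1 without corrected replicate 1, 1 without WT library a, 0 without WT library b, 0 when only the 2 groups were fitted and 11 with DESeq2. The count of all genes called, 683 with all libraries, came to 2859, 128, 49, 9, 16 and 1639 in the same order.

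The fourth question was how the levels differ between 4 weeks and the run groups at 8 weeks. In WT muscle 1 of the 42 genes was higher and 17 were lower in the run group (2.38% and 40.5%), where 13.4% and 14.2% of all genes were. Without the 4-week WT replicate 3 it was 4 higher and 16 lower, where 1709 and 1926 of 14983 genes were. In delEx44 muscle 5 were higher and 13 lower (11.9% and 31.0%), where 16.4% and 19.3% of all genes were. In corrected muscle 2 were higher and 20 lower (4.76% and 47.6%), where 12.3% and 13.5% of all genes were. The ADAMTS proteases made up much of this, with 10, 8 and 11 of 18 lower in WT, delEx44 and corrected muscle and 0 higher. Summed neutrophil markers were at 65.3 to 209 CPM in all 6 run libraries, with 0 of the 10 markers at 0, and their part in these differences was not tested.

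Adamts12 fell in the run group in each genotype, by 1.49 ± 0.11 on the log2 scale in WT, 1.5 ± 0.11 in corrected and 0.69 ± 0.11 in delEx44 muscle (adjusted p = 1.14e-05, 3.85e-05 and 0.00045). Adamts2 fell by 0.82 ± 0.12, 1.02 ± 0.12 and 0.50 ± 0.12, Adamts17 by 2.36 ± 0.37, 1.75 ± 0.34 and 1.79 ± 0.29, and Adamts14 by 1.18 ± 0.20, 0.58 ± 0.20 and 0.55 ± 0.19 in the same order. All of these passed. The Adamts14 call was lost in delEx44 without either run library or 4-week replicate 1 or 3 (adjusted p up to 0.20), and in corrected muscle without either run library or 4-week replicate 2 or 3 or when only the 2 groups were fitted (up to 0.18). Adamtsl2, a matrix protein that binds latent TGF-beta complexes, was at 15.3 to 22.5 CPM in WT muscle at 4 weeks and at 4.54 and 4.85 in the run group, a fall by 1.95 ± 0.30 (adjusted p = 0.00090). Adamts20 fell by 1.96 ± 0.31 in WT (adjusted p = 0.0011) and by 1.09 ± 0.30 in corrected muscle (adjusted p = 0.020; lost without run replicate 1, at 0.14, without 4-week replicate 2, at 0.053, and with only the 2 groups, at 0.086), and was at -0.41 ± 0.29 in delEx44 muscle (adjusted p = 0.28). Adamts19 fell in each genotype, from 0.510 to 1.09 CPM in delEx44 muscle at 4 weeks to 0.211 and 0.111 in the run group (by 2.19 ± 0.52, adjusted p = 0.0057). The delEx44 call was lost without run replicate 2 (adjusted p = 0.059), and that in corrected muscle without 4-week replicate 1 (0.074) or run replicates 1 (0.064) or 3 (0.15).

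Among the metalloproteinases Mmp14 fell in the run group by 0.66 ± 0.18 in WT, 0.99 ± 0.18 in corrected and 0.79 ± 0.18 in delEx44 muscle (adjusted p = 0.017, 0.0023 and 0.0048), calls lost in WT without run replicate 2 (adjusted p = 0.13) and in delEx44 without run replicate 1 (0.063). Mmp23 fell by 0.88 ± 0.17, 0.95 ± 0.17 and 0.98 ± 0.17, all of which passed. The exceptions in delEx44 muscle were Timp3, Timp4, Adamtsl4, Adamtsl5 and Mmp28, which were higher in the run group. Without run replicate 1 the calls of Timp3 (adjusted p = 0.15), Timp4 (0.12), Adamtsl4 (0.38) and Mmp28 (0.052) were lost. That of Mmp28 was also lost without run replicate 2 (0.066), that of Adamtsl4 without 4-week replicate 1 (0.067), and those of Timp3 (0.065) and Adamtsl4 (0.086) with only the 2 groups fitted. Timp4 rose by 1.38 ± 0.35 in delEx44 (adjusted p = 0.011) and by 1.47 ± 0.34 in corrected muscle (adjusted p = 0.011; lost without run replicate 1, at 0.12, and with only the 2 groups, at 0.056), and in WT muscle its run libraries had 41.2 and 79.8 CPM, one just below and one above the 4-week range of 41.3 to 47.1 CPM. Adamtsl5 rose in all 3 genotypes, by 0.51 ± 0.11, 0.33 ± 0.11 and 0.34 ± 0.11 in WT, delEx44 and corrected muscle. These calls were lost in WT without run replicate 2 (adjusted p = 0.062), in delEx44 without 4-week replicate 1 or 2 or run replicate 2 (up to 0.25), and in corrected muscle without either run library or 4-week replicate 1 or 2 (up to 0.13). The count of 22 in corrected muscle came to 14 without 4-week replicate 2, where 2696 of all genes were called in place of 3878. It was also lower without run replicate 1, as was the count of 18 in delEx44 muscle without either run library. These run fits leave 1 library in a group, and the counts of all genes were lower in them too.

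Whether the genotype difference itself changed between the 4-week and run groups was tested as a difference of differences. Adamts12 passed for delEx44 against WT (0.79 ± 0.15, adjusted p = 0.032), 1 of 42 genes, where 0.586% of all genes passed as higher and 0.293% as lower. Without WT replicate 3 at 4 weeks 1 member passed as higher and 2 as lower, where 97 and 70 of 14983 genes did. Adamts12 (-0.80 ± 0.15, adjusted p = 0.030) and Adamtsl1 (-0.88 ± 0.18, adjusted p = 0.036) passed for corrected against delEx44, where 0.406% and 1.01% of all genes did. Adamts12 overlapped between the genotypes at 4 weeks, fell in all 3, and was higher in delEx44 muscle after running. Adamtsl1 was at 14.8 to 20.8 CPM in delEx44 and 21.4 to 23.4 in corrected muscle at 4 weeks, and at 16.6 and 18.6 against 11.3 and 13.3 after running. These counts came to 0 in most fits that left out 1 library, for delEx44 against WT without WT replicates 1 or 2 or delEx44 replicate 1 at 4 weeks, either WT run library or delEx44 run replicate 1, and to 2 without delEx44 replicate 2 and 3 without WT replicate 3, both at 4 weeks. For corrected against delEx44 they came to 0 without delEx44 replicate 1 or any of the 3 corrected replicates at 4 weeks. They also fell without any 1 of the 4 run libraries, fits that leave 1 library in a group. Counts of all genes moved too when 1 4-week library was left out. They went from 132 to between 24 and 167 for delEx44 against WT, and from 213 to between 14 and 308 for corrected against delEx44.

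The same test between the sedentary groups at 4 weeks and 18 months asked which genotype differences were unlike at these ages. The ages come from separate count tables, so age and table cannot be told apart. Records that name no gene made up 29.8% to 33.9% of the 4-week libraries and 42.2% to 48.3% of those at 18 months. For delEx44 against WT 9 of 42 genes had a larger or more positive difference at 18 months and 1 a more negative one (21.4% and 2.38%), where 7.02% and 3.91% of all genes did. Timp3 (1.09 ± 0.20, adjusted p = 0.0022) and Timp4 (1.55 ± 0.31, adjusted p = 0.0056) were lower in delEx44 than in WT muscle at 4 weeks and overlapped with it at 18 months. Mmp2 (0.84 ± 0.22, adjusted p = 0.025) rose at both ages, by more at 18 months. Adamts20 (1.87 ± 0.33, adjusted p = 0.0025) and Adamts12 (0.77 ± 0.19, adjusted p = 0.014) rose at 18 months, while at 4 weeks their differences of -0.38 ± 0.25 and -0.01 ± 0.09 did not pass. Adamts9 (1.20 ± 0.31, adjusted p = 0.022), a proteoglycanase, was at 15.6 to 21.5 CPM in delEx44 and 21.8 to 30.0 in WT muscle at 4 weeks, and at 21.1 to 23.9 against 12.8 to 15.4 at 18 months. Its call was lost without WT replicate 1 or delEx44 replicate 1 or 3 at 4 weeks, or WT library a, WT library b or delEx44 replicate 3 at 18 months (adjusted p up to 0.058). That of Mmp2 was lost without WT replicate 1 or 3 or delEx44 replicate 3 at 4 weeks, or WT replicate 3 or delEx44 replicate 1 or 3 at 18 months (up to 0.063). The count of 10 came to between 4 and 6 in the 8 fits that left out WT replicate 1, delEx44 replicate 1 or 3 at 4 weeks, any WT library at 18 months, or delEx44 replicate 1 or 3 at 18 months. In these 8 fits the count of all genes, 1632 with all libraries, came to between 1118 and 1348.

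For corrected against delEx44 muscle 2 genes had a more positive and 7 a more negative difference at 18 months than at 4 weeks (4.76% and 16.7%), where 7.75% and 8.12% of all genes did. Adamts16 (-3.88 ± 0.60, adjusted p = 0.00066), Adamtsl5 (-0.79 ± 0.14, adjusted p = 0.0021), Timp2 (-0.63 ± 0.15, adjusted p = 0.013), Adamts2 (-0.83 ± 0.20, adjusted p = 0.014), Adamts1 (-0.93 ± 0.23, adjusted p = 0.014) and Mmp2 (-0.84 ± 0.22, adjusted p = 0.020) had the smallest p. The call of Mmp2 was lost without delEx44 replicate 3 (adjusted p = 0.051) or corrected replicate 2 (0.052) at 4 weeks. This difference of differences carries the change of dose, vector and count table with age, and it uses the delEx44 libraries of the test against WT. The count of 9 came to 5 without corrected replicate 2 at 4 weeks, where that of all genes came to 1763 in place of 2370.

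The metalloproteinases work beside other proteolytic systems of the cell surface. Of 48 other genes of matrix proteolysis (ADAM proteases, the plasminogen system, serpins, procollagen and peptide processing enzymes and receptors), 43 were tested at 4 weeks, of which 21 were higher and 9 lower in delEx44 against WT, where 25.2% and 25% of all genes were. After running 17 of 43 were higher and 2 lower, where 14.9% and 14.2% of all genes were. At 18 months 30 of 44 were higher and 2 lower, where 28.8% and 23.8% of all genes were. The medians were 0.33, 0.36 and 0.61 on the log2 scale. Adam8, a sheddase of leukocytes and regenerating muscle, rose by 4.04 ± 0.33 at 4 weeks (adjusted p = 3.8e-06) and 3.24 ± 0.40 after running (adjusted p = 0.00023). Anpep, a surface aminopeptidase, rose by 1.64 ± 0.09 at 4 weeks (adjusted p = 2.4e-07) and 1.86 after running, Hpse, which cuts heparan sulfate, by 2.08 ± 0.22 at 4 weeks (adjusted p = 8.4e-06), and Lrp1, an uptake receptor for proteases bound to their inhibitors, by 0.78 ± 0.09 (adjusted p = 1.3e-05). Fap, a protease of activated fibroblasts, rose by 0.87 ± 0.13 after running (adjusted p = 0.00034).

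Serpine2, protease nexin 1, fell by 0.87 ± 0.08 at 4 weeks (adjusted p = 2.9e-06) and by 0.67 ± 0.10 after running (adjusted p = 0.00035). At 18 months Plaur, the urokinase receptor, rose by 2.31 ± 0.28 (adjusted p = 0.00012), Thbs1, which binds Mmp2 and activates latent TGF-beta, by 2.39 ± 0.20 (adjusted p = 4.5e-05), Serpinh1, the collagen chaperone, by 1.06 ± 0.08 (adjusted p = 9.3e-06) and Serping1, the inhibitor of complement C1, by 1.10 ± 0.13 (adjusted p = 0.00011).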

How the data were processed

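Raw read counts per gene of 24 quadriceps libraries were deposited by the authors in 2 tables, for 15 libraries (4 weeks and run) and 9 (18 months). Per the submitters' processing notes reads were processed with HTSeq, STAR 2.7.2b, Trim Galore, SAMtools 1.9, edgeR and Bowtie2 2.3.4.3 on mm10, with the aligner behind the counts, the annotation and the strand setting not given in the sources used here. Records that name no gene (27.4% to 34.2% of records in the first table, 42.2% to 48.3% at 18 months) were left out. 2 WT columns at 18 months could be matched to the group only and are called a and b. 1 further Mmp gene is not reported here.

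Counts were fitted with edgeR 4.0.16 in R 4.3.3 (filterByExpr, TMM, robust quasi-likelihood, 1 mean per group) over the 15 libraries (15013 genes), the 9 (14337) or the 18 sedentary ones (14937). The F-test was adjusted over all genes, with a threshold of 0.05, for 16 comparisons. SEs are the absolute log2 fold change divided by the square root of F. Labels do not say whether each library is 1 animal, so p-values measure the spread between these samples. The smallest chi-square per degree of freedom between replicate libraries was 9.06, more than counting noise alone gives when 1 library is read again. This cannot show that the libraries came from separate animals.

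The members, lists and rules were chosen with earlier results of these data known. Genes named by rule were Timp1 to Timp4, Mmp2, Mmp9 and Mmp14, up to 8 members of smallest p per genotype comparison and up to 6 per other comparison, and up to 5 of the other proteolysis genes per stage. A gene that this rule names among the other proteolysis genes is not reported here. Other members named, such as Mmp8, Mmp13, Mmp15, Mmp16, Adamts3 and Adamts4, were chosen after their values were seen. Alternatives were DESeq2 1.42.0, RLE size factors, no filter, a fit of only the 2 groups compared, each library left out and a replicate block. The fit was tested on simulated data. Positions and exon lengths are from GENCODE vM21 (GRCm38), promoters from RefSeq (GRCm38.p6). Figures were drawn with matplotlib 3.10.9.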

Additional observations from a re-analysis of the deposited data

Results flagged for a closer look

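These genes are listed because the genotype difference itself differed between stages by the test of that difference (log2, 18 months or run minus 4 weeks, adjusted over all genes). For delEx44 against WT the difference after running was 0.79 larger in Adamts12. For corrected against delEx44 it was -0.80 in Adamts12 and -0.88 in Adamtsl1. Between 4 weeks and 18 months, delEx44 against WT moved by 1.87 in Adamts20, 1.55 in Timp4, 1.20 in Adamts9, 1.09 in Timp3, 0.84 in Mmp2, 0.78 in Adamts1, 0.77 in Adamts12, 0.72 in Adamts2, 0.51 in Timp2 and -0.50 in Mmp15. Adamts1 (adjusted p = 0.039), Adamts2 (0.034), Mmp15 (0.034) and Timp2 (0.043) were closest to the threshold, and missed it in 9, 9, 8 and 11 other fits.

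Between the same ages, corrected against delEx44 moved by -3.88 in Adamts16, -0.93 in Adamts1, -0.84 in Mmp2, -0.83 in Adamts2, -0.79 in Adamtsl5, -0.63 in Timp2 and -0.56 in Adamts12. It moved by 1.26 in Timp1 (adjusted p = 0.040) and 0.92 in Adamts7 (adjusted p = 0.023). Timp1 was 39.9 ± 8.31 CPM (SD, n = 3) in delEx44 and 5.96 ± 1.08 in corrected muscle at 4 weeks, and 10.6 ± 0.97 and 3.71 ± 1.39 at 18 months. Adamts12 was the nearest to the threshold (adjusted p = 0.050). Other fits missed it 10 times for Adamts12, 11 for Timp1 and 4 for Adamts7.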

How the results depend on the processing

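Of 91 differences of named genes that passed, 69 passed in every other fit, 22 missed the threshold in at least 1 and 0 changed sign. Of 37 that did not pass, 7 passed in another fit and 15 changed sign. Scaling moved the median of all genes by at most 0.047 on the log2 scale. DESeq2 called 5 members in place of 1 for delEx44 against WT in the change with running, and 11 in place of 3 for corrected against WT at 18 months. Of all genes it called 649 in place of 132 and 1639 in place of 683. With only the 2 groups fitted, corrected against WT at 18 months gave 0 and corrected against delEx44 after running 6 in place of 11. Of all genes these fits called 16 in place of 683 and 1256 in place of 3485. Counts of all genes called moved too when 1 library was left out. They went from 7541 to between 5977 and 7272 for delEx44 against WT at 4 weeks. For corrected against WT at 18 months they went from 683 to between 9 and 2859. Leaving out 1 library at a time gave these members called. For delEx44 against WT they were 17 to 22 at 4 weeks, 10 to 12 after running and 16 to 21 at 18 months. For corrected against delEx44 they were 9 to 16, 5 to 12 and 15 to 21, and for corrected against WT 0, 0 and 0 to 13. For run against 4 weeks they were 12 to 20 in WT, 8 to 16 in delEx44 and 7 to 20 in corrected muscle. For changes with running they were 0 to 3 and 0 to 2, and for changes with age 4 to 9 (delEx44 against WT) and 5 to 10 (corrected against delEx44). Where a fit dropped 1 of 2 run libraries, the other was taken to vary like the other groups. The cause of these changes was not tested, beyond fewer samples. Timp3 in corrected against delEx44 muscle at 18 months (-0.03) was 0.000245 with RLE size factors and 0.000246 with DESeq2. Values that did not pass and took both signs when 1 library was left out were Mmp9 in delEx44 against WT (-2.17 to 0.16), corrected against WT (-2.03 to 0.39) and corrected against delEx44 (-0.33 to 0.53) at 4 weeks, and Timp1 in corrected against WT at 4 weeks (-0.35 to 0.22). After running they were Timp3 in delEx44 against WT (-0.44 to 0.56), corrected against delEx44 (-0.45 to 0.54) and corrected against WT (-0.10 to 0.29), and, in corrected against WT, Mmp14 (-0.40 to 0.25), Timp2 (-0.18 to 0.0032) and Mmp2 (-0.021 to 0.28). At 18 months they were Timp3 in corrected against delEx44 (-0.18 to 0.093), Timp4 in delEx44 against WT (-0.24 to 0.034) and, in corrected against WT, Timp2 (-0.058 to 0.15), Mmp2 (-0.10 to 0.37) and Mmp14 (-0.021 to 0.44). Replicate numbers could serve as a replicate block only in corrected against delEx44 at 18 months, where 17 members were called in place of 19 (Adamts10 at an adjusted p of 0.058 and Adamts20 at 0.065 were lost); deviations of same-numbered libraries correlated at -0.07, 0.05 and -0.05, so the numbers do not pair the samples. No paired analysis was possible elsewhere because the other groups share fewer than 2 numbers given by the labels.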

Other observations

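Of 28 genes for substrates and partners of the ADAMTS and ADAMTS-like proteins, 8 of 25 tested rose and 3 fell in delEx44 against WT at 4 weeks, where 25.2% and 25% of all genes did. After running 7 of 25 rose and 0 fell, where 14.9% and 14.2% of all genes did, and at 18 months 17 of 23 rose and 0 fell, where 28.8% and 23.8% did. The genes given here were chosen after their values were seen. Ltbp2, a microfibril protein, rose by 2.53 ± 0.36, 1.52 ± 0.41 and 2.45 ± 0.16 on the log2 scale at the 3 stages (adjusted p = 0.00012, 0.017 and 4.8e-06). Fn1, fibronectin, rose by 1.16 ± 0.17, 1.06 ± 0.21 and 2.05 ± 0.32 (adjusted p = 0.00013, 0.0026 and 0.0013), and Vcan, versican, by 0.68 ± 0.21, 0.94 ± 0.26 and 1.12 ± 0.16 (adjusted p = 0.018, 0.020 and 0.00046).

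The fibrillar collagens, whose procollagens Adamts2, Adamts3 and Adamts14 trim, were not alike at 4 weeks. Col3a1 rose in delEx44 at that age by 0.68 ± 0.14 (adjusted p = 0.0013), while Col1a1 was at -0.06 ± 0.21 (adjusted p = 0.84) and Col1a2 at -0.15 ± 0.19 (adjusted p = 0.54). At 18 months all 3 rose, by 1.41 ± 0.21, 1.02 ± 0.14 and 1.00 ± 0.14 (adjusted p = 0.00080, 0.00028 and 0.00040). Comp, the cartilage protein cut by Adamts7 and Adamts12, was at -0.55 ± 0.32 at 4 weeks (adjusted p = 0.17) and rose by 1.34 ± 0.16 at 18 months (adjusted p = 0.00015). In corrected against delEx44 muscle 10 of 25 genes of this list fell at 4 weeks, 7 of 25 after running and 17 of 23 at 18 months, where 24.2%, 12.4% and 21.4% of all genes did, and 0 rose; this uses the same delEx44 libraries.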
